A study of Arabidopsis thaliana with 24 samples.

Results

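The interfascicular cambium of Arabidopsis thaliana stems, captured after 5 days of culture on the synthetic auxin NAA, was compared with the starch sheath of untreated stems, the layer at the inner edge of the cortex where this cambium arises. The comparison rests on 6 of the 24 ATH1 arrays of the series, 3 of each tissue, and on all 22746 probe sets that are not array controls. By the labels a group's 3 arrays are biological replicates; the sources used here do not state the number of plants in each. All plants were wild type and grew for 3 weeks in short days (8 hours of light) before a switch to long days (16 hours). Stem pieces of 1.5 cm, cut 2.5 cm above the base, were kept on split plates of MS medium, a standard plant salt medium, and the central 3 mm, which did not touch the medium, were frozen and cut into sections of 5 µm for laser capture. For the cambium group the plates carried NAA and the culture lasted 5 days, while the starch sheath of the untreated group was captured at time 0. Values of other wild-type groups are given beside these: starch sheath after 2 days on NAA, starch sheath after 2 and 5 days on MS medium alone, surrounding stem after 2 and 5 days on NAA, and untreated surrounding stem, with 3 arrays each. Between the cambium and the untreated starch sheath the cutting and culture of the stem, NAA, 5 days of time and the captured cell type all differ, and these cannot be told apart in this comparison.

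The vascular cambium is the sheet of dividing cells that makes wood on its inner side and bast on its outer side. In a young Arabidopsis stem it runs only within the vascular bundles; as the stem base matures, cells between the bundles resume division and close the sheet into a ring. Auxin that moves down the stem is needed for this step, and a stem piece supplied with auxin forms such an interfascicular cambium in culture. Known regulators of the cambium are the receptor kinase PXY with its peptide ligands CLE41 and CLE44, the transcription factor WOX4, and class III homeodomain leucine zipper factors such as PHV.

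The untreated starch sheath arrays differed among themselves. Replicates 2 and 3 of this group, and replicate 3 of the untreated stem, had a narrow spread of values (SD over probe sets 0.955 to 1.08) and 532 to 836 probe sets above a log2 level of 6, where the other 21 arrays had SDs of 1.22 to 1.57 and 1233 to 2255 such probe sets. Replicates correlated at 0.917 to 0.955 over probe sets in the cambium and at 0.763 to 0.877 in the untreated starch sheath. The excess of the 3' over the 5' GAPDH control probe set, in log2 units, was 6.17 to 7.15 in the cambium and 3.93 to 4.83 in the untreated starch sheath. The 5' probe set was at 2.57 to 2.76 in the cambium and 2.68 to 2.73 in the untreated starch sheath. These 5' levels lie under the median of all values, so the excess mainly follows the 3' level. The part of these array differences in the results was not tested beyond the fits named below. Each result that rests on the narrow arrays is given with and without them, and without them the untreated starch sheath is 1 array, taken to vary like the other groups. The median of all values was 3.09; there are no detection calls, and whether a level near this median is above background is unknown, and a fold against it is a ratio of fitted values. In laser-captured pools, more cells of a type and more RNA per cell cannot be told apart. A level is a log2 value throughout, a change is the cambium mean minus the untreated starch sheath mean on that scale, and its error is the SE of the limma model. Every adjusted p is limma's, by Benjamini-Hochberg over all 22746 probe sets, with 0.05 as the threshold.

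In the cambium 1365 probe sets (6% of those tested) were higher and 587 (2.58%) lower than in the untreated starch sheath, at a median change of -0.08 over all probe sets. Without the 3 narrow arrays 487 were higher (2.14%) and 1030 lower (4.53%), so that the share called higher was 32.1% in place of 69.9%, and the median change of all probe sets was 0.05, against -0.08 with them. Of the original calls 402 of the higher and 295 of the lower passed in that fit as well. The brightest 4549 probe sets by mean level held 901 of the 1365 higher calls, and 245 of the higher calls without the narrow arrays. The median level of these probe sets was 5.69, 5.83 and 5.21 on the cambium arrays, and 5.67, 4.73 and 4.68 on the untreated starch sheath arrays, where the low values are those of the narrow arrays. After quantile normalization the calls were 1383 higher and 1041 lower, with 57.1% higher. The 3 cambium arrays lay above all 3 untreated ones in 10.1% of all probe sets and below them in 8.73%, whether called or not. Of the 46 called genes that the naming rules chose by size, list or name, 39 passed both without the narrow arrays and after quantile normalization.

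The genes that rose most in the cambium were near the median of all values in the untreated starch sheath and among the bright genes in the cambium. The 15 largest rises were chosen among called genes whose groups do not overlap, so that separation is fixed by the choice. AT1G59740 (NPF4.3), a member of the nitrate and peptide transporter family, had levels of 8.71, 10.68 and 8.49 on the cambium arrays, against 2.97, 3.11 and 3.15 on the untreated starch sheath arrays. The change of AT1G59740 was 6.22 ± 0.76 (74.4-fold, adjusted p = 5.79e-05). ARL, a gene of the ARGOS family that promotes organ growth by cell expansion, had 9.32, 9.37 and 8.42 in the cambium, against 4.08, 3.3 and 3.73 in the untreated starch sheath. All 3 cambium arrays were alike, and ARL was 40.2-fold higher there (5.33 ± 0.44, adjusted p = 8.66e-07). BGLU33, a gene of the beta-glucosidase family, had 9.08, 6.17 and 8.40 in the cambium, against 2.21, 2.80 and 2.91 in the untreated starch sheath. The 3 cambium arrays spread over almost 3 log2 units, and the change was 5.24 ± 0.88 (37.9-fold, adjusted p = 0.000919).

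Genes of cell wall, defence and redox families were also among the 15 largest rises. Prx37, a class III peroxidase of the cell wall space, had 7.56, 8.16 and 7.91 in the cambium, against 2.73, 3.25 and 3.43 in the untreated starch sheath (26.7-fold, 4.74 ± 0.64, adjusted p = 0.000156). FMO, a flavin-containing monooxygenase gene, had 8.22, 8.31 and 7.71 in the cambium, against 2.93, 3.66 and 3.31 in the untreated starch sheath (27.4-fold, 4.78 ± 0.42, adjusted p = 1.72e-06). For both, the gap between the groups was several times the spread within either. LCR68 and LCR69, which encode small cysteine-rich proteins of the defensin type, changed by 4.70 ± 0.94 and 4.48 ± 0.62 (adjusted p = 0.00385 and 0.000182). ATLP-1, a thaumatin-like protein gene, had 5.28, 8.78 and 7.42 in the cambium, against 2.67, 2.59 and 3.01 in the untreated starch sheath (4.40 ± 0.76, adjusted p = 0.00126). GH9B13, an endoglucanase gene of the family that acts on cellulose-type glucans, had 6.84, 10.25 and 6.48 in the cambium, against 4.66, 2.58 and 3.58 in the untreated starch sheath. Its rise of 4.25 ± 1.06 (adjusted p = 0.0168) did not pass without cambium replicate 2 (3.05, adjusted p = 0.132), without untreated replicate 2 (3.74, adjusted p = 0.0824) or without the narrow arrays (3.2, adjusted p = 0.321). LCR68 did not pass without the narrow arrays either, and the other 13 of the 15 rises did. AT3G53190, on the pectin list as a pectate lyase, AT5G27760, which carries a locus code only, and 4 low-oxygen genes described below complete the 15.

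**Figure D1:**
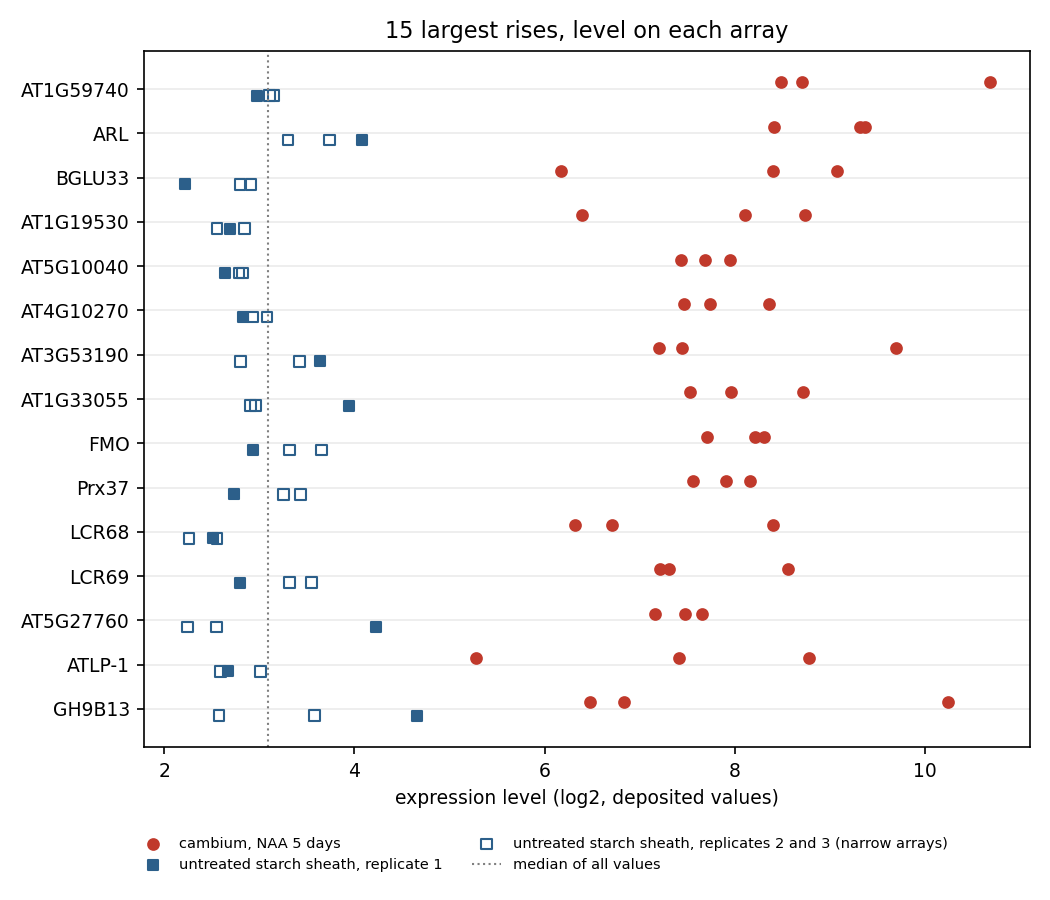
Levels (log2, deposited values) of the 15 genes with the largest rises on each array of the 2 groups: red circles are the 3 cambium arrays at 5 days on NAA, blue squares the 3 untreated starch sheath arrays, open where the array has a narrow spread, and the dotted line is the median of all values (3.09). The genes were chosen with groups that do not overlap. No cambium array of these genes lies under 5.28 and no untreated one over 4.66, and the mean of the untreated group lies under the dotted line in 8 of the 15.

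The same genes had been measured in the starch sheath kept on medium alone and in the stem around it. Against the starch sheath after 5 days on MS medium 15 of 15 were higher in the cambium, where 2.01% of all probe sets were. Of the 15, 1 (ARL) was higher after 5 days on MS medium than in the untreated starch sheath, a call that depended on the narrow arrays. After 2 days on NAA 4 were higher. In these comparisons 4.32% and 7.47% of all probe sets were higher. These comparisons share the cambium or the untreated arrays with the one described here and are no independent evidence. ARL stood at 9.16, 8.86 and 7.59 after 2 days on NAA and at 5.07, 6.23 and 4.50 after 5 days on MS medium. AT1G59740 stood at 7.73, 9.23 and 5.51 after 2 days on NAA and at 2.71, 3.27 and 2.64 after 5 days on MS medium. Both were thus high on the NAA arrays of the interfascicular region at either time, and of these only ARL was above its untreated level on medium alone (1.56 ± 0.44, adjusted p = 0.0427). In the surrounding stem, whose arrays are not shared with the cambium comparison, 9 of the 15 rose after 5 days on NAA against untreated stem, with and without the narrow array, where 2.37% of all probe sets were called higher. ARL had 9.30, 8.92 and 9.42 in the stem on NAA, against 5.31, 5.01 and 4.64 in untreated stem (4.22 ± 0.44, adjusted p = 1.92e-05).

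Whether a change differed between the interfascicular region and the surrounding stem was tested directly, as the change in the cambium minus the change in the stem over the same 5 days on NAA. 7 probe sets passed, all with the higher signed change in the cambium (0.0308% of those tested), and 0 the other way; at an unadjusted p under 0.05 limma counted 1048 and 1018. The count and its direction depend on the arrays used: without the narrow arrays 24 probe sets had the higher change in the cambium and 74 the lower one, without untreated starch sheath replicate 1 they were 464 and 637, and a fit of the 12 compared arrays gave 0 (671 and 432 at an unadjusted p under 0.05). Of the 7, 2 name a gene in the annotation, BGLU33 and AT3G05620, and 5 have no name there. AT3G05620, on the pectin list as a pectin methylesterase, had 5.63, 6.91 and 7.56 in the cambium, against 2.64, 2.85 and 3.15 in the untreated starch sheath (14.1-fold, 3.82 ± 0.34, adjusted p = 2.49e-06). In the stem it had 2.57, 3.72 and 2.98 on NAA, against 3.17, 2.54 and 2.63 untreated (0.31 ± 0.34, adjusted p = 0.846). The cambium arrays were the high ones among all 24, and the changes differed by 3.51 ± 0.49 (adjusted p = 0.00982). It did not pass without stem replicate 3 on NAA (3.46, adjusted p = 0.0511) and passed in the other 11 fits that left out 1 array.

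BGLU33 had 2.82, 2.86 and 2.82 in the stem on NAA, against 8.05, 3.27 and 3.21 in untreated stem, a change of -2.02 ± 0.88 that did not pass (adjusted p = 0.272). Untreated stem replicate 1 alone was high, at the level of the cambium arrays. The changes differed by 7.26 ± 1.24 (adjusted p = 0.0437), and by 5.66 (adjusted p = 0.00215) without untreated stem replicate 1. Without 1 of 6 other arrays this difference did not pass (7.0 to 7.40, adjusted p 0.0525 to 0.0903). The same untreated stem array was the highest of its group for LCR68 (6.28, against 2.44 and 2.87 on the other untreated stem arrays), ATLP-1 (5.14, against 3.05 and 3.14) and AT3G53190 (6.30, against 3.12 and 4.52).

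**Figure D2:**
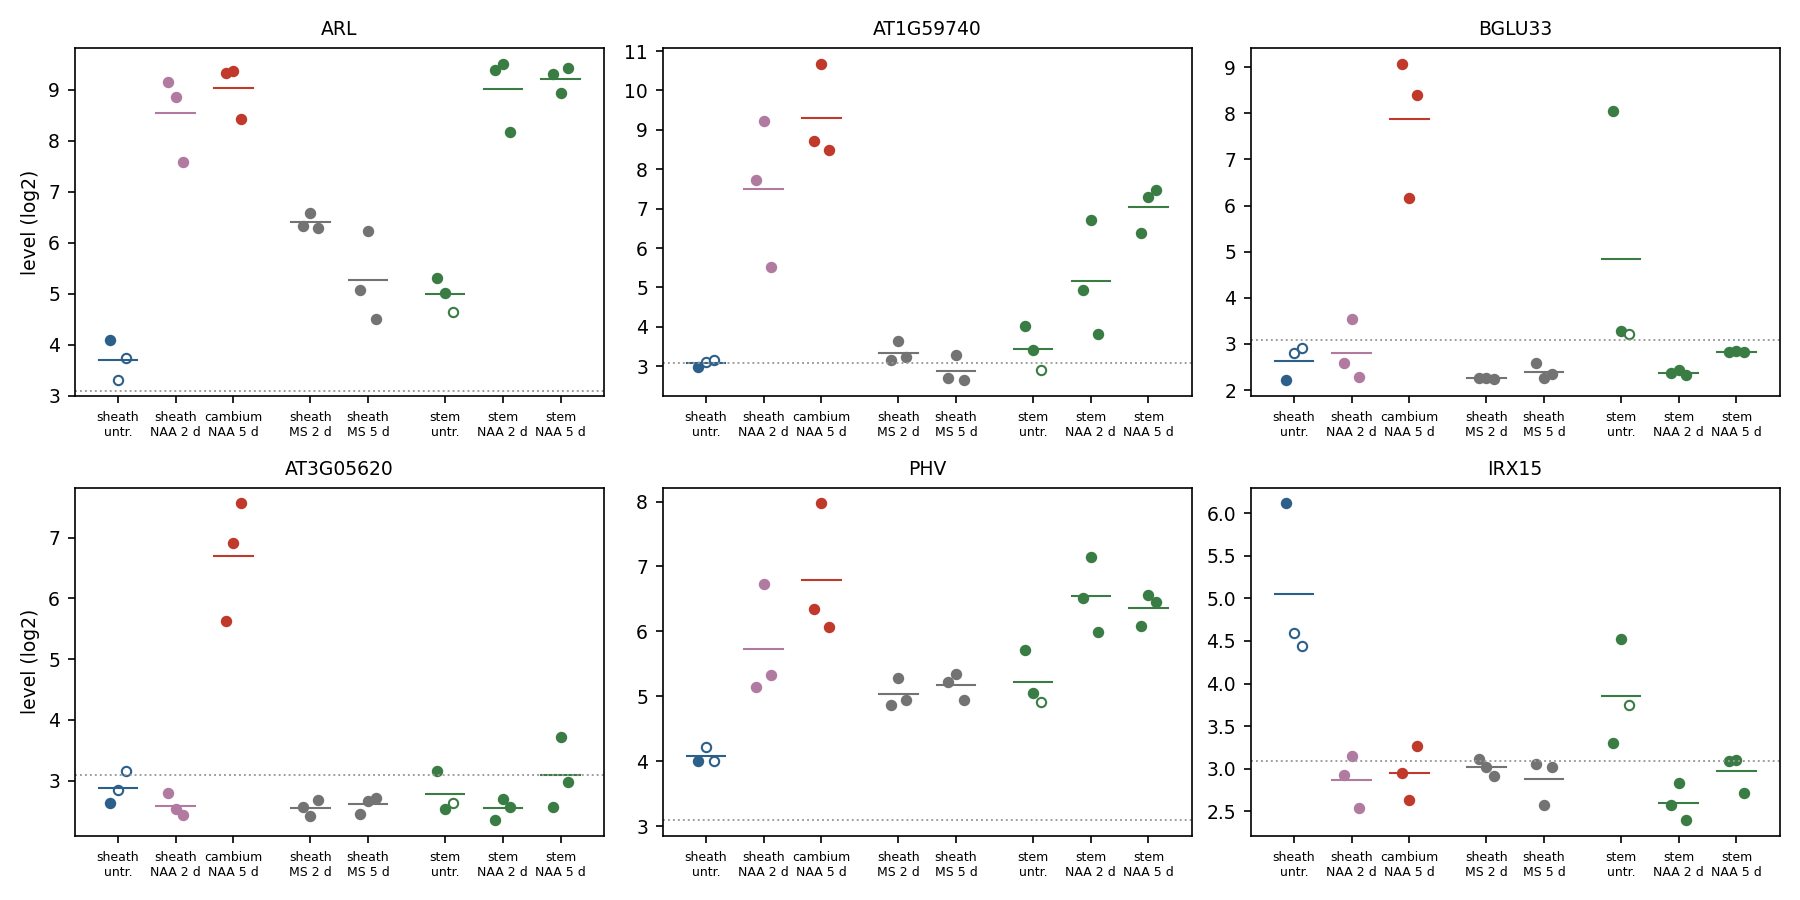
Levels (log2) of ARL, AT1G59740, BGLU33, AT3G05620, PHV and IRX15 on all 24 arrays: points are arrays, open for the 3 narrow ones, short lines are group means of 3 arrays, and the dotted line is the median of all values. ARL is high in the groups on NAA of both tissues, AT1G59740 in these groups except the stem at 2 days on NAA, where its 3.82 to 6.72 reach down to the untreated levels, AT3G05620 only on the 3 cambium arrays, BGLU33 on these and 1 untreated stem array, and IRX15 is highest in the untreated starch sheath.

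Plants that run short of oxygen switch on a core set of genes through group VII ethylene response factors, and the set serves as a marker of that state. Of 30 such genes listed, 14 were measured, and 10 of them rose in the cambium, 0 fell and 4 did not pass, at a median change of 2.42 (6% of all probe sets rose, with a median of -0.08). The mean level of the 14 genes was 6.40, 6.24 and 5.53 on the cambium arrays, against 3.49, 3.37 and 3.43 on the untreated starch sheath arrays. The wide and the narrow untreated arrays had nearly the same mean, close to the median of all values, and the lowest cambium mean was that of replicate 3, which also had the narrowest spread of the cambium arrays (SD 1.22). Without the narrow arrays the median change of the 14 genes was 2.61, against 0.05 for all probe sets. AT5G10040 had 7.95, 7.43 and 7.69 in the cambium, against 2.64, 2.79 and 2.82 in the untreated starch sheath (30.8-fold, 4.94 ± 0.25, adjusted p = 1.03e-09). AT4G10270 had 8.37, 7.46 and 7.74 in the cambium, against 2.83, 2.93 and 3.08 in the untreated starch sheath (30.1-fold, 4.91 ± 0.38, adjusted p = 5.3e-07). AT1G19530 and AT1G33055 changed by 5.05 ± 0.63 and 4.80 ± 0.46 (adjusted p = 7.3e-05 and 6.33e-06). These 4 genes are among the 15 largest rises, which were chosen with groups that do not overlap.

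Smaller rises in the list were those of AT4G24110 (2.92 ± 0.36), AT3G27220 (2.68 ± 0.30), AT5G66985 (2.29 ± 0.25), AT4G33560 (1.73 ± 0.22) and AT4G27450 (2.54 ± 0.59), with adjusted p of 1.89e-05 to 0.0103. AT3G10040 (HRA1), a factor known to dampen this response, had 6.17, 6.56 and 4.41 in the cambium, against 3.16, 4.02 and 3.94 in the untreated starch sheath (2.00 ± 0.38, adjusted p = 0.00285). PDC2, a pyruvate decarboxylase gene of the ethanol pathway, had 6.86, 8.24 and 6.26 in the cambium, against 6.50, 5.05 and 5.19 in the untreated starch sheath, and did not pass (1.54 ± 0.67, adjusted p = 0.16). CML38, AT3G03270 and AT4G17670 did not pass either (0.74, 0.68 and -0.02). AT4G27450 did not pass without the narrow arrays (1.28, adjusted p = 0.405).

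The low-oxygen genes gave no call in the starch sheath at 2 days on NAA or on medium alone for 5 days. The mean of the list was 3.52, 3.80 and 3.88 in the starch sheath after 2 days on NAA and 3.52, 3.53 and 3.53 after 5 days on MS medium, and 0 of 14 passed against the untreated starch sheath in either comparison (limma; 2 were higher and 0 lower at an unadjusted p under 0.05 in each). After 2 days on MS medium the mean was 3.45, 3.68 and 3.84, and 1 of 14 passed, AT1G33055 (1.71 ± 0.46, adjusted p = 0.0377), which did not pass without the narrow arrays (1.04, adjusted p = 0.493). In the surrounding stem, measured on other arrays, 10 of 14 rose at 5 days on NAA against untreated stem, where 2.37% of all probe sets did. Without the narrow arrays 9 rose there, where 485 of all 22746 probe sets did. The list stood at 6.13, 5.86 and 6.41 in the stem on NAA, against 3.91, 3.54 and 3.53 in untreated stem. AT5G10040 had 8.83, 8.51 and 9.91 in the stem on NAA, against 2.41, 2.56 and 2.85 in untreated stem (6.48 ± 0.25, adjusted p = 8.07e-12). The change of 0 of the 14 genes differed between the tissues by limma (2 higher and 3 lower in the cambium at an unadjusted p under 0.05). Against the starch sheath after 5 days on MS medium, 10 of the 14 were higher in the cambium and 0 lower (median 2.62). Of all probe sets 2.01% were higher there. Time is equal in that comparison, but NAA and tissue state differ together. The only interfascicular group of 5 days on NAA is the cambium, so NAA and tissue state cannot be told apart for this list. No stem group was kept on medium alone, so in the stem NAA and time in culture cannot be told apart. In a fit of the 6 compared arrays alone 5 of the 14 rose (144 of all 22746 probe sets did). With the GAPDH excess, which does not overlap between the groups, as a model term 3 rose (45 of all probe sets did).

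**Figure D3:**
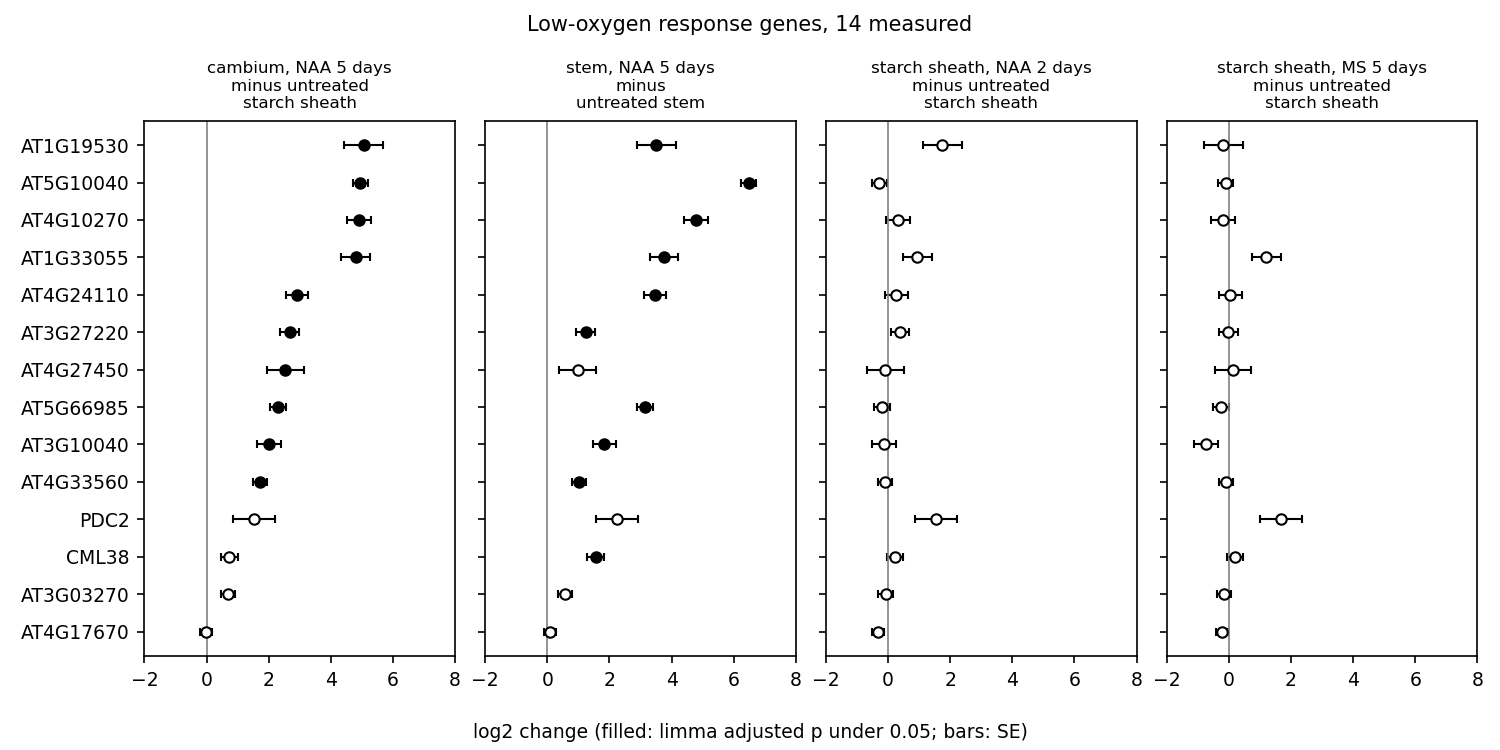
Log2 change with SE of the 14 measured low-oxygen genes in 4 comparisons, ordered by the change in the cambium: cambium at 5 days on NAA, stem at 5 days on NAA, starch sheath at 2 days on NAA and starch sheath at 5 days on MS medium, each minus the untreated tissue. Filled points have a limma adjusted p under 0.05, which holds for 10, 10, 0 and 0 of the 14 genes.

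Few regulators of the cambium have a named probe set in the annotation used, so they check the label of the captured tissue only in part. Of 37 listed genes 7 were measured, and 3 of them rose, 0 fell and 4 did not pass, at a median change of 0.95 (6% of all probe sets rose, with a median of -0.08). The 3 include MOL1, which the study picked from these arrays, so its rise is no independent check of the label. Without the narrow arrays 2 of the 7 rose, where 2.14% of all probe sets did. PHV had 6.35, 7.97 and 6.07 in the cambium, against 4.0, 4.23 and 4.01 in the untreated starch sheath (6.58-fold, 2.72 ± 0.43, adjusted p = 0.000585). LHW, a bHLH factor that acts in vascular cell divisions, had 5.41, 5.87 and 5.03 in the cambium, against 3.93, 3.52 and 3.90 in the untreated starch sheath (1.65 ± 0.29, adjusted p = 0.00137). MOL1, a receptor-like kinase that restrains cambium activity and that the study picked from these arrays, had 4.60, 6.33 and 3.13 in the cambium, against 3.01, 3.08 and 2.80 in the untreated starch sheath. Its cambium replicate 3 lay at the level of the untreated arrays, and the change of 1.73 ± 0.52 (adjusted p = 0.0474) ended without cambium replicate 1 or 2, without untreated replicate 2 or 3 (0.90 to 1.78, adjusted p 0.103 to 0.295) and without the narrow arrays (adjusted p = 0.303). The peptide ligand gene CLE41 had 5.78, 5.98 and 5.53 in the cambium, against 5.74, 4.65 and 4.05 in the untreated starch sheath, and did not pass (0.95 ± 0.39, adjusted p = 0.138). CLE44 did not pass (0.25 ± 0.64, adjusted p = 0.829). WOX4, PXY and SCR have no named probe set in the annotation used, so the defining markers of cambium and starch sheath were largely not analysed here.

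PHV and LHW were also above their untreated level in other cultured groups. PHV stood at 5.14, 6.73 and 5.32 after 2 days on NAA (1.65 ± 0.43, adjusted p = 0.0189) and at 5.22, 5.34 and 4.95 after 5 days on MS medium (1.09 ± 0.43, adjusted p = 0.133). LHW stood at 4.89, 5.87 and 5.49 after 5 days on MS medium, a change of 1.63 ± 0.29 (adjusted p = 0.00243) beside its 1.65 in the cambium. LHW in the cambium differed from the group on medium alone by 0.02 ± 0.29 (adjusted p = 0.998), while PHV passed in the cambium against 5 days on MS medium (1.63 ± 0.43, adjusted p = 0.041, or 0.0534 without the narrow arrays). Without those arrays PHV after 2 days on NAA and LHW after 5 days on MS medium did not pass either (adjusted p = 0.183 and 0.067). Neither passed in the surrounding stem (1.14, adjusted p = 0.178, and 0.51, adjusted p = 0.486), and neither change was shown to differ between the tissues (adjusted p = 0.457 and 0.423).

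Early auxin genes gave 1 rise, ARL, among 9 measured, where 6% of all probe sets rose, with 8 that did not pass (median change 0.20). At an unadjusted p under 0.05 limma counted 3 higher and 1 lower. Against the starch sheath after 5 days on MS medium 3 of the 9 were higher in the cambium (2.01% of all probe sets were). After 2 days on NAA 3 of the 9 were higher than in the untreated starch sheath (7.47% of all probe sets were). GH3.3, a quickly auxin-induced gene whose enzyme joins auxin to amino acids, had 8.33, 5.95 and 6.58 in the cambium, against 5.75, 4.90 and 4.03 in the untreated starch sheath. All 3 cambium arrays were above all untreated ones, but the change of 2.06 ± 0.83 did not pass (adjusted p = 0.128). After 2 days on NAA it stood at 8.37, 9.62 and 6.53 and after 5 days on MS medium at 2.2, 2.56 and 2.37. The cambium was higher than the starch sheath kept on medium alone (4.58 ± 0.83, adjusted p = 0.00286), and that group did not differ from the untreated one by the test (-2.51 ± 0.83, adjusted p = 0.0763). HAT2, an auxin-inducible homeodomain factor, had 9.27, 9.81 and 8.49 in the cambium, against 8.11, 8.27 and 7.0 in the untreated starch sheath, and did not pass (1.40 ± 0.66, adjusted p = 0.188). Of 7 Aux/IAA repressor genes 0 passed by limma, and 0 at an unadjusted p under 0.05, with a median change of -0.11 and a range of -0.22 to 0.73.

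Cytosolic ribosomal protein genes, a list added after the values of this comparison were seen, gave 76 of the 1365 calls higher. Of 127 measured genes these 76 rose, 0 fell and 51 did not pass, at a median change of 1.65 (6% of all probe sets rose, with a median of -0.08). Without the narrow arrays fewer rose, at a median of 1.12, against 0.05 for all probe sets. Without cambium replicate 2, 49 rose, where 640 of all 22746 probe sets did. The mean level of the list was 6.28, 6.33 and 5.67 on the cambium arrays, against 5.00, 4.3 and 4.24 on the untreated starch sheath arrays. The 2 narrow untreated arrays were the lowest, and the wide one also lay below all cambium arrays. AT5G52650 had 9.46, 9.40 and 8.93 in the cambium, against 6.49, 5.42 and 5.62 in the untreated starch sheath (3.42 ± 0.36, adjusted p = 1.25e-05), and 2.77 without the narrow arrays (adjusted p = 0.000508). AT1G77940 had 9.0, 9.04 and 8.07 in the cambium, against 5.99, 5.09 and 5.25 in the untreated starch sheath (3.26 ± 0.30, adjusted p = 3.3e-06). AT3G60245 had 11.83, 11.25 and 10.85 in the cambium, against 8.72, 7.22 and 7.40 in the untreated starch sheath (3.53 ± 0.43, adjusted p = 5.32e-05). These 3 were picked from the list after their values were seen; each kept its groups apart also from the wide untreated array.

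The ribosomal genes were also higher in the starch sheath of the other cultured groups. Against the same untreated arrays, 106 of the 127 genes rose after 2 days on NAA, where 7.47% of all probe sets did. After 2 and 5 days on MS medium 74 and 58 rose (3.97% and 4.32% of all probe sets did). Without the narrow arrays fewer rose, and the median changes of the list were 1.94, 1.29 and 0.84 in the same order. By limma 0 of 127 differed between the cambium and the starch sheath after 5 days on MS medium. The surrounding stem had 24 rises at 5 days on NAA (2.37% of all probe sets rose there). Without the narrow arrays it had 20, where 485 of all 22746 probe sets rose. In a fit of the 6 compared arrays alone 12 rose, where 144 of all 22746 probe sets did. With the GAPDH excess as a model term 0 rose by limma, where 45 of all probe sets did. At an unadjusted p under 0.05 in that fit 10 were higher and 3 lower. Of 7 snoRNP and nucleolar protein genes, which serve the making of ribosomes and were added with the same list, 2 rose, where 6% of all probe sets did. Their median change was 0.34, or 0.57 without the narrow arrays. AT4G12600 had 7.48, 7.27 and 6.95 in the cambium, against 4.43, 2.81 and 3.04 in the untreated starch sheath (3.81 ± 0.57, adjusted p = 0.000356), and AT3G03920 changed by 1.88 ± 0.47 (adjusted p = 0.0177), or by 0.82 without the narrow arrays (adjusted p = 0.492).

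**Figure D4:**
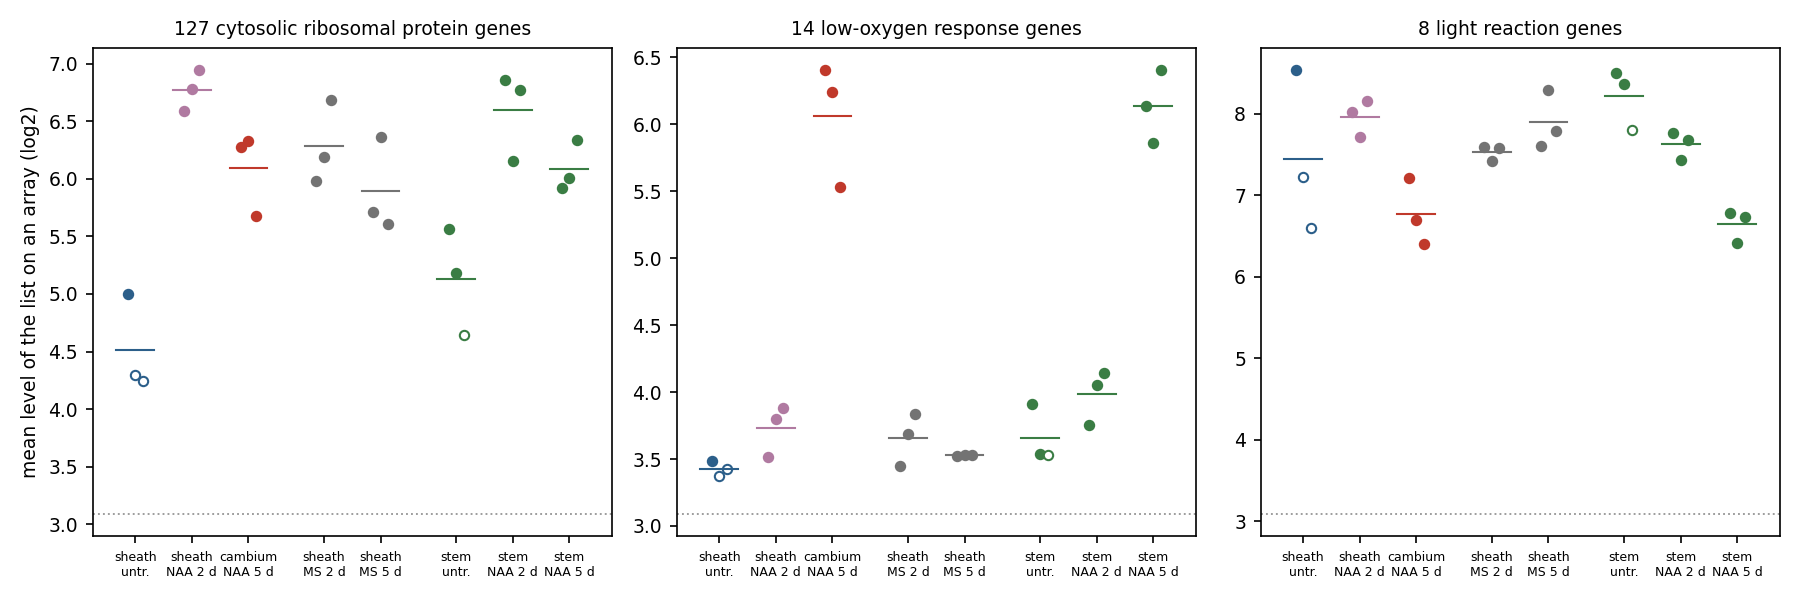
Mean level (log2) on each of the 24 arrays of 127 cytosolic ribosomal protein genes, 14 low-oxygen genes and 8 light reaction genes: points are arrays, open for the 3 narrow ones, short lines are group means, and the dotted line is the median of all values. The ribosomal list is high in all cultured groups, the low-oxygen list in the 2 groups of 5 days on NAA, and the light reaction list is lowest in these 2 groups.

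The genes that fell most ranged in change from -4.59 to -2.24. AT1G22480, which carries a locus code only, had 4.72, 3.08 and 4.02 in the cambium, against 9.50, 8.64 and 7.47 in the untreated starch sheath (24.1-fold lower, -4.59 ± 0.82, adjusted p = 0.00163). AT1G80170 had 6.50, 5.66 and 5.05 in the cambium, against 11.56, 9.07 and 8.48 in the untreated starch sheath (15.7-fold lower, -3.97 ± 0.80, adjusted p = 0.00429). ALDH11A3, the cytosolic glyceraldehyde phosphate dehydrogenase that makes NADPH without phosphorylation, had 6.35, 4.82 and 4.24 in the cambium, against 9.34, 7.94 and 7.08 in the untreated starch sheath (7.87-fold lower, -2.98 ± 0.58, adjusted p = 0.00336). In 14 of the 15 largest falls the wide untreated array, replicate 1, was the highest of its group, so the size of a fall depends on it, and 15 of 15 passed without the narrow arrays, a fit in which it stands for its group alone.

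TBL38, of a family whose members acetylate wall polysaccharides, had 2.92, 3.07 and 3.28 in the cambium, against 7.93, 4.79 and 4.40 in the untreated starch sheath (-2.62 ± 0.60, adjusted p = 0.00982). AT3G23090 (WDL3), of a microtubule-associated family, had 2.86, 3.13 and 2.82 in the cambium, against 7.70, 5.09 and 3.58 in the untreated starch sheath (-2.52 ± 0.73, adjusted p = 0.0385). Its fall did not pass in 5 of the 6 fits that left out 1 array, all but that without untreated replicate 3 (-2.70 to -1.40, adjusted p 0.0637 to 0.103). The other 10 falls were of genes named by a locus code and of the plastid gene psbI. AT5G06930, AT1G07280, AT2G16660 and AT4G32340 changed by -3.55, -3.29, -2.99 and -2.50. AT2G32150, AT1G47410, AT5G18590, AT2G26800 and AT4G35985 changed by -2.39, -2.38, -2.32, -2.31 and -2.24. In the fits that left out 1 array, AT2G32150 did not pass in 4 of 6 (adjusted p 0.0557 to 0.119) and psbI in 2, those without cambium replicate 2 and untreated replicate 2 (adjusted p = 0.0855 and 0.0696). AT4G32340 and AT5G18590 did not pass without cambium replicate 2 (adjusted p = 0.0727 and 0.0783), nor AT2G16660 without cambium replicate 1 (adjusted p = 0.0558).

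**Figure D5:**
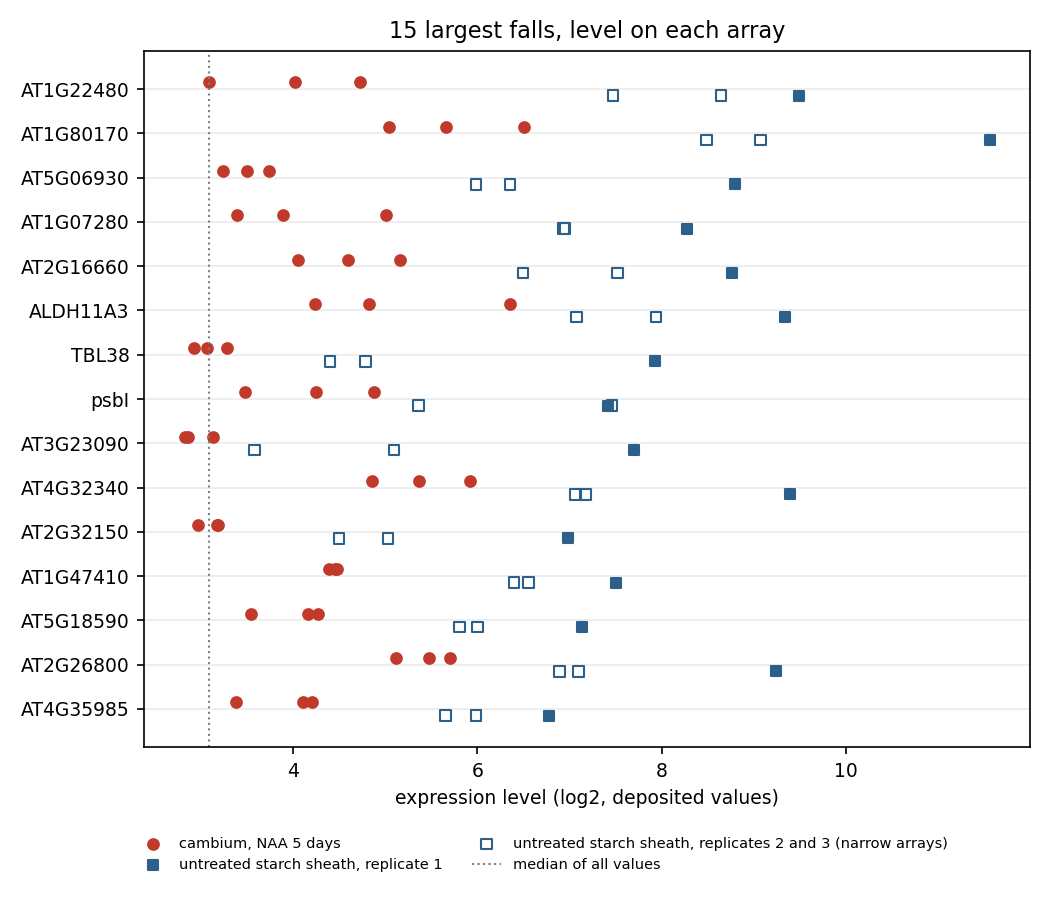
Levels (log2, deposited values) of the 15 genes with the largest falls on each array of the 2 groups: red circles are the 3 cambium arrays at 5 days on NAA, blue squares the 3 untreated starch sheath arrays, open where the array has a narrow spread, and the dotted line is the median of all values (3.09). The filled square, untreated replicate 1, is the rightmost of its group in 14 of the 15 genes.

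Many of the falls were also called without NAA or outside the interfascicular region. Of the 15, 3 (AT1G07280, AT5G18590 and ALDH11A3) were lower in the cambium than in the starch sheath after 5 days on MS medium (1.48% of all probe sets were), and 6 in the fit without the narrow arrays. Against the same untreated arrays, 8 were lower after 5 days on MS medium and 9 after 2 days on NAA, where 2.02% and 4.28% of all probe sets were lower. The falls were chosen for high values on these untreated arrays, so both counts are no independent evidence. In the surrounding stem, with no shared array, 13 of the 15 fell at 5 days on NAA, with and without the narrow array, where 1.63% of all probe sets were called lower. ALDH11A3 had 7.57, 8.22 and 8.48 after 2 days on NAA and 7.23, 7.66 and 7.41 after 5 days on MS medium, so that its cambium arrays were the low ones of the interfascicular region. In the stem it had 5.80, 4.51 and 5.19 on NAA, against 10.05, 9.23 and 8.09 untreated (-3.96 ± 0.58, adjusted p = 0.000511).

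Of 31 listed genes of xylem and the secondary wall only 3 were measured, all of xylan synthesis, and 3 of 3 fell, with and without the narrow arrays (2.58% and 4.53% of all probe sets were lower). IRX15 and IRX15-L, which act in the synthesis of xylan, the main hemicellulose of wood, and GUT2, a glycosyltransferase of the same pathway, were near the median of all values in the cambium. IRX15 had 2.95, 2.63 and 3.27 in the cambium, against 6.12, 4.60 and 4.44 in the untreated starch sheath (4.3-fold lower, -2.10 ± 0.35, adjusted p = 0.000854). IRX15-L had 3.26, 3.49 and 3.42 in the cambium, against 6.68, 4.61 and 4.32 in the untreated starch sheath (-1.81 ± 0.46, adjusted p = 0.0177). GUT2 had 3.04, 3.34 and 3.32 in the cambium, against 5.67, 3.95 and 4.94 in the untreated starch sheath (-1.62 ± 0.40, adjusted p = 0.0166). The groups did not overlap in any of the 3. The calls of IRX15-L and GUT2 ended without cambium replicate 1 or 2 (adjusted p 0.0544 to 0.0649), and that of GUT2 also without untreated replicate 3 (adjusted p = 0.0526). All 3 were also lower after 2 days on NAA and after 5 days on MS medium than in the same untreated arrays (4.28% and 2.02% of all probe sets were). By limma 0 of 3 differed between the cambium and 5 days on MS medium. For the surrounding stem 0 of 3 fell by limma (3 at an unadjusted p under 0.05). Without the narrow arrays 2 fell there, where 960 of all 22746 probe sets did.

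The single measured gene of starch sheath identity, JKD, a zinc finger factor of the cell layer that corresponds to the sheath in the root, had 3.08, 2.79 and 3.40 in the cambium, against 3.21, 4.25 and 4.48 in the untreated starch sheath. The higher untreated values were those of the narrow arrays, and the fall of -0.89 ± 0.27 (adjusted p = 0.0467) was -0.11 without them (adjusted p = 0.929). Of 6 genes of starch metabolism 0 passed by limma and 0 at an unadjusted p under 0.05. SBE2.2, a starch branching enzyme gene, had 3.79, 4.27 and 2.72 in the cambium, against 4.24, 3.26 and 3.16 in the untreated starch sheath (0.04 ± 0.45, adjusted p = 0.965). Of 2 phloem genes and 1 guard cell gene 0 passed by limma, and 0 at an unadjusted p under 0.05. The median change of the phloem genes was -0.004, or 0.55 without the narrow arrays, where their lack of calls did not hold. Genes of epidermis, suberin and auxin transport on the lists had no named probe set.

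How far genes of photosynthesis were lower in the cambium depended on the untreated arrays. Of 8 measured genes of the light reactions 0 passed by limma, 0 were higher and 2 lower at an unadjusted p under 0.05, and the median change was -0.70. Without the narrow arrays the median change was -2.11, against 0.05 for all probe sets. The lack of calls did not hold in that fit, in which the untreated starch sheath is 1 array. After quantile normalization 7 of the 8 fell, where 1041 of all 22746 probe sets were lower. The mean level of the 8 genes was 7.22, 6.70 and 6.40 on the cambium arrays, against 8.54, 7.22 and 6.59 on the untreated starch sheath arrays. The wide untreated array lay well above all cambium arrays, narrow replicate 2 was level with the highest of them, and narrow replicate 3 lay among them. LHCB4.2, a light-harvesting protein gene, had 8.07, 7.07 and 6.28 in the cambium, against 10.18, 8.39 and 6.99 in the untreated starch sheath (-1.38 ± 0.57, adjusted p = 0.139; -3.04 without the narrow arrays, adjusted p = 0.00111). The surrounding stem showed falls of 5 of the 8 at 5 days on NAA (1.63% of all probe sets were lower), and 7 without the narrow arrays (960 of 22746 were). The list stood at 6.78, 6.41 and 6.73 there, against 8.50, 8.36 and 7.80 in untreated stem. Against the starch sheath after 5 days on MS medium, 3 of the 8 were lower in the cambium and 1 higher. Of all probe sets 1.48% were lower and 2.01% higher in that comparison. Of 3 Calvin cycle genes 0 passed by limma (2 were lower at an unadjusted p under 0.05). Their median change was -0.99, or -2.03 without the narrow arrays, where the lack of calls did not hold either. In the cambium 2 of the 3 were lower than after 5 days on MS medium (1.48% of all probe sets were). RCA, which encodes Rubisco activase, had 6.18, 5.28 and 5.44 in the cambium, against 7.67, 6.84 and 5.98 in the untreated starch sheath (-1.20 ± 0.39, adjusted p = 0.0626).

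Of 69 genes of the plastid genome, another list added after the values were seen, 9 fell and 0 rose in the cambium, at a median change of -0.45, and 15 fell without the narrow arrays; of all probe sets 2.58% were lower, and 4.53% without the narrow arrays. Without cambium replicate 1 or 2 the falls were 5 and 1, and without untreated replicate 1 they were 16, with 1 rise. The mean level of the list was 3.53, 3.06 and 3.59 on the cambium arrays, against 4.46, 3.97 and 3.64 on the untreated starch sheath arrays. The photosystem II genes psbI, psbL and psbC changed by -2.54 ± 0.60, -1.59 ± 0.38 and -1.81 ± 0.41 (adjusted p = 0.0121, 0.0129 and 0.0087). psbC had 4.89, 4.17 and 5.53 in the cambium, against 6.78, 6.75 and 6.50 in the untreated starch sheath, where all 3 arrays were alike.

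Few listed genes of cell division were measured, and those of mitosis and DNA replication gave no call. Of 43 listed genes of mitosis and cytokinesis 11 were measured. Of these 0 passed by limma (1 was higher and 1 lower at an unadjusted p under 0.05), at a median change of 0.13 and a range of -0.62 to 0.68. Of 21 listed genes of DNA replication 2 were measured, and 0 passed, also at an unadjusted p under 0.05. The mean level in the cambium and the untreated starch sheath was 3.11 and 2.97 for the mitosis list and 2.65 and 2.59 for the replication list. These lie near or under the median of all values (3.09), so the lack of calls does not show that division was absent. The chromatin gene 3xHMG-box2, which is known to act on mitotic chromosomes, had 2.64, 4.04 and 2.67 in the cambium, against 2.59, 2.37 and 2.34 in the untreated starch sheath (0.68 ± 0.27, adjusted p = 0.13). Its cambium replicate 2 alone was clearly raised. Of 5 core histone genes 2 rose, where 6% of all probe sets did. HTB4, a histone H2B gene, had 6.69, 7.28 and 6.44 in the cambium, against 6.10, 3.87 and 4.42 in the untreated starch sheath (2.00 ± 0.49, adjusted p = 0.0149). The wide untreated array was close to the cambium arrays, and without the narrow arrays the change was 0.70 (adjusted p = 0.61). HTB4 did not pass without cambium replicate 2 or without untreated replicate 2 or 3 (adjusted p 0.0637 to 0.093). HTB11, another H2B gene, had 5.98, 6.02 and 5.06 in the cambium, against 5.23, 3.35 and 3.49 in the untreated starch sheath, with groups that overlap. Its rise of 1.66 ± 0.51 lay just under the threshold (adjusted p = 0.04997) and was 0.46 without the narrow arrays (adjusted p = 0.821); it did not pass without cambium replicate 1 or 2 or untreated replicate 2 or 3 (adjusted p 0.153 to 0.202). Both H2B calls thus rest on the narrow arrays.

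Few genes on the wall lists were called. Of 13 genes of pectin modification 2 rose and 0 fell, at a median change of -0.05, where 6% of all probe sets rose and 2.58% fell. The 2 were AT3G05620, described above, and AT3G53190, which had 7.45, 9.70 and 7.21 in the cambium, against 3.64, 3.42 and 2.80 in the untreated starch sheath (28.5-fold, 4.83 ± 0.80, adjusted p = 0.000854). Without the narrow arrays the median change of the 13 genes was 0.02, against 0.05 for all probe sets. The lack of falls did not hold in that fit, in which the untreated starch sheath is 1 array. Of 12 genes of wall loosening, expansins and xyloglucan enzymes, 1 rose, close to the 6% of all probe sets that did, at a median change of -0.18. EXGT-A3, a xyloglucan endotransglucosylase gene, had 8.08, 7.40 and 7.31 in the cambium, against 6.53, 5.85 and 5.76 in the untreated starch sheath (1.55 ± 0.36, adjusted p = 0.00971). That rise was 1.07 without the narrow arrays (adjusted p = 0.25), 0.78 after quantile normalization (adjusted p = 0.0787) and 1.31 without cambium replicate 1 (adjusted p = 0.0577). After 5 days on MS medium the gene was at 8.53, 8.47 and 8.06, and the cambium differed from that group by -0.75 ± 0.36 (adjusted p = 0.375).

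Of the other lists, 1 measured clock gene and 1 jasmonate gene passed. GI, a clock gene with an evening peak, had 3.35, 3.81 and 4.28 in the cambium, against 6.44, 4.60 and 4.84 in the untreated starch sheath (-1.48 ± 0.35, adjusted p = 0.0127); the call ended without cambium replicate 1 or 2 (adjusted p = 0.0724 and 0.0525). The labels give no hour of collection. AT3G11180, an oxygenase gene on the jasmonate list, had 2.64, 2.55 and 2.66 in the cambium, against 3.2, 3.02 and 3.43 in the untreated starch sheath (-0.60 ± 0.11, adjusted p = 0.00224), near the median of all values throughout. Of 3 glucosinolate genes 0 passed by limma, and BCAT4, an aminotransferase of methionine-derived glucosinolate synthesis, had 4.99, 2.98 and 5.22 in the cambium, against 9.72, 7.15 and 6.03 in the untreated starch sheath (-3.23 ± 1.03, adjusted p = 0.0573). Its groups did not overlap, and BCAT4 passed without the narrow arrays (-5.32, adjusted p = 0.00968) and after quantile normalization (-4.01, adjusted p = 0.00246). In the stem it fell by 7.70 ± 1.03 on the log2 scale (adjusted p = 0.000218). Of the 8 genes on the lists of cytokinin signalling, sugar starvation, rapid stress and touch response, gibberellin and brassinosteroid, and ethylene, 0 passed by limma and 2 were lower at an unadjusted p under 0.05. The sugar starvation gene AKINBETA1, a regulatory subunit gene of SnRK1 kinase, changed by -1.44 (adjusted p = 0.128), and passed without the narrow arrays (-3.06, adjusted p = 0.00597) and after quantile normalization (-1.79, adjusted p = 0.0221).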

How the data were processed

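RNA of laser-captured tissue was measured on ATH1 arrays, 3 for each of 8 groups. The authors deposited 1 table of log2 values for 22810 probe sets; RMA and limma are named in the submitters' processing notes, without versions, and the base of the logarithm, read from the values (1.73 to 13.5), is not written. The deposited values were used as they stand, without the 64 controls. Of the rest 13513 name 1 gene in the platform annotation, 503 several and 8730 none; 13436 matched a locus of TAIR10.1. limma 3.58.1 in R 4.3.3 (statmod 1.5.0) was fitted with 1 mean per group over all 24 arrays, two-sided, with Benjamini-Hochberg adjustment, a threshold of 0.05 and no minimum fold. The scripts were tested on simulated data. With 3 arrays a group the number of arrays limits the precision, and p-values measure the spread between these arrays, which may be technical. The members and lists were chosen with earlier results of these data known. Named were the 15 largest rises and 15 largest falls among called probe sets of 1 gene whose groups do not overlap, called differences between the tissues, up to 6 called genes a list, and 13 genes whatever their values; other genes named from the lists were chosen after their values were seen. Of 27 lists with 628 entries 120 genes were measured, and 3 lists had none; 3 lists (ribosomal, snoRNP and plastid genes) were added after the values were seen. Alternatives left out the narrow arrays, each array in turn or dim probe sets, used quantile normalization, array weights, a trended robust prior, a replicate block, the GAPDH 3' excess as a covariate, a minimum of 2-fold, or only the arrays compared.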

Additional observations from a re-analysis of the deposited data

Results flagged for a closer look

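7 probe sets had a higher signed change between 5 days on NAA and the untreated state in the interfascicular region than in the surrounding stem, by limma's test of the difference itself, and 0 a lower one. Without the narrow arrays 24 were higher and 74 lower, and a fit of the 12 compared arrays gave 0 calls (671 higher and 432 lower at an unadjusted p under 0.05). BGLU33 was among the 7, with a difference of 7.26 ± 1.24 between the 2 changes (adjusted p = 0.0437), and 8.51 without the narrow arrays. AT3G05620 was another, with a difference of 3.51 ± 0.49 (adjusted p = 0.00982), and 3.83 without the narrow arrays. The other 5 have no gene in the annotation.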

How the results depend on the processing

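The comparison of cambium with untreated starch sheath gave 1952 calls, and 7048 with array weights (whose estimation stopped before it converged), 160 in a fit of the 6 compared arrays, 111 with the GAPDH excess as a model term, and 819 to 5798 with 1 array left out (819 without cambium replicate 2, 1218 without cambium replicate 1, 1141 without untreated replicate 2, 5798 without untreated replicate 1). Its share of higher calls, 69.9%, was 44.2% with weights, 40.5% with the GAPDH term, 90% over the compared arrays and 82.3% with a minimum of 2-fold. The stem gave 910 calls (59.3% higher), and 4558 with weights (48.7%), 427 over the compared arrays, 1445 without the narrow arrays (33.6%) and 408 to 1067 with 1 array left out; 28% were higher with the GAPDH term. The difference between tissues gave 7 calls, and 4391 with weights, 3 with the GAPDH term, 0 by limma over the compared arrays (671 higher and 432 lower at an unadjusted p under 0.05), 34 after quantile normalization, 24 with a trended prior, 98 without the narrow arrays (24 higher and 74 lower) and 1 to 1101 with 1 array left out. With the replicate number as a block these comparisons gave 2009, 960 and 2 calls; same-numbered arrays correlated at 0.383, -0.272 and 0.518 in their deviations, so the numbers were not taken as pairs. The causes were not tested, beyond that fewer arrays enter some fits and that the GAPDH excess does not overlap between the groups. Of the 46 called named genes 31 passed whichever array was left out and 7 in each alternative run; with the GAPDH term 11 passed and HTB4 (-0.55), HTB11 (-1.12) and MOL1 (-0.18) turned direction. The narrow spread of 3 of 24 arrays limits the comparison.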
